A study of Mus musculus with 9 samples.

Results

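The genes described here are 8 genes of cholesterol handling, namely 7 that encode enzymes of sterol synthesis (Hmgcs1, Idi1, Fdps, Fdft1, Sqle, Cyp51 and Hsd17b7) and Abca1, which encodes an exporter of cholesterol. They were selected by gene symbol: every probe set of the deposited table with exactly 1 annotated symbol that is one of these was taken, which gave 12 probe sets of 12488 in all. Fdps has 4 probe sets, Abca1 has 2 and each other gene has 1. No gene of sterol uptake is among the 8. RNA came from TtT/GF, an established line of mouse pituitary folliculostellate cells grown in medium with heat-inactivated serum, and each of 9 Affymetrix MG_U74A v2 arrays measured 1 culture. In 3 cultures the cells had no treatment, in 3 they had 10 µM NECA for 30 min and in 3 the same dose for 120 min. NECA is a synthetic, stable analog of adenosine and an agonist at its cell surface receptors. All groups are the same line, no vehicle is named, and no untreated culture is matched to either time, so handling and NECA cannot be told apart as sources of a difference. In bulk RNA of this kind, fewer cells that express a gene and less RNA per cell cannot be told apart.

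Cholesterol is built from acetyl-CoA through mevalonate, isoprenoid units, squalene and lanosterol. Transcription of the enzyme genes is driven mainly by SREBP-2, a membrane-bound transcription factor that is released when sterols in the endoplasmic reticulum are low and that binds sterol regulatory elements, commonly beside CCAAT boxes bound by NF-Y. Abca1 is controlled mainly in the opposite sense, by the liver X receptors (LXR), which sense oxysterols. Folliculostellate cells are the non-hormonal cells of the anterior pituitary, joined by gap junctions.

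Promoter sequences were looked up in RefSeq (build GRCm38.p6) for the 8 genes, and 5 were found, for Hmgcs1, Idi1, Cyp51, Hsd17b7 and Abca1. Printed below, 5′ to 3′ on the gene's strand, are the bases before the outermost annotated start of the 3 genes that passed the test at 120 min. They lie at chr13:119690101-119690350 (plus strand) for Hmgcs1, chr1:169969243-169969455 (minus strand) for Hsd17b7 and chr4:53159989-53160145 (minus strand) for Abca1. Capitals mark matches, on either strand, to the letters TCACNCCAC (a sterol regulatory element), CCAAT (read as ATTGG on the other strand) and CACGTG (an E-box). Since other annotated starts lie further upstream, the stretches of Hsd17b7 and Abca1 end 38 and 94 bases before the start that the promoter table uses, and that of Hmgcs1 ends at the base before it.
Hmgcs1: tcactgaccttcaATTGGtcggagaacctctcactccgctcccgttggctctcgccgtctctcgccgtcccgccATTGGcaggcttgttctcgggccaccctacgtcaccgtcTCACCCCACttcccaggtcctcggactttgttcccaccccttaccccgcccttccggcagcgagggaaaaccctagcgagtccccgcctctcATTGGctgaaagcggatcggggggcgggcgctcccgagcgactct
Hsd17b7: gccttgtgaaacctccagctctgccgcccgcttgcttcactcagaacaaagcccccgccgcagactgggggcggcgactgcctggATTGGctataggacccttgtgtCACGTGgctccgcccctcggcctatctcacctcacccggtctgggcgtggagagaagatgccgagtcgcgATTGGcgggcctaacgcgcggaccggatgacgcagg
Abca1: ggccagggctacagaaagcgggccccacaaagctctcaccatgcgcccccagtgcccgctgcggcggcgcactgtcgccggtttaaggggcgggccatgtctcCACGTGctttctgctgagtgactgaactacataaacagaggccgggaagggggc

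Motifs were searched on both strands in the 250 bases before the start that the promoter table uses. The letters TCACNCCAC stood in 1 of the 5 promoters, that of Hmgcs1, from 137 to 129 bases before the start, against 1.05% of all 32851 promoters in the table. CCAAT stood in 4 of the 5, with 3 matches for Hmgcs1, 3 for Hsd17b7, 2 for Idi1, 1 for Cyp51 and 0 for Abca1, and in 33.8% of all promoters. The third match of Hsd17b7, from 12 to 8 bases before the start, lies outside the printed stretch. CACGTG stood in the promoters of Hsd17b7 and Abca1 and in 6.02% of all. The GC box GGGCGG stood in all 5 and in 32.7% of all. The cAMP response element TGACGTCA was in 0 of the 5 (1.55% of all), and the shorter TGACG, which the full element contains, in 3, those of Hmgcs1, Cyp51 and Hsd17b7 (17.8% of all). An exact direct repeat of AGGTCA with 4 bases between, a strict form of the LXR element called DR4, was in 0 of the 5 and in 0.0152% of all. The search allowed no mismatch and the exact repeat is this rare, so its absence here does not show that Abca1 lacks an LXR element. These matches describe letters in these windows, and factor binding was not measured.

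The deposited values are MAS5 signals, which are relative brightness per probe set and do not order the levels of different genes. Each array's trimmed mean signal was between 100.06 and 100.07, and the lowest correlation of log2 signals between 2 arrays of a group was 0.947, for NECA 30 min replicates 2 and 3. Tests used limma on log2(signal + 7.93) over the 7851 probe sets that were above a signal of 20.5 in at least 3 arrays, with p-values adjusted by Benjamini-Hochberg over all of them. A call means an adjusted p under 0.05. Of the 12 probe sets 10 passed the filter, at least 1 for each gene, and each gene is represented by its probe set with the highest mean. Nr4a1 and Il6, an immediate early gene and a cytokine gene, were called higher than in untreated cells at both NECA times. Nr4a1 averaged a signal of 89.5 in untreated cells, 1402 at 30 min and 149 at 120 min, and Il6 averaged 2.21, 67.4 and 329. The probe set of Il6 passed the filter only through the NECA arrays, where it was high. The parts of NECA and of handling in these 2 changes cannot be told apart. Of 8 folliculostellate marker genes 6 passed the filter, among them the gap junction gene Gja1 (1135 ± 224 in untreated cells, SD, n = 3) and S100b (57.8 ± 6.55), while the probe sets of Vim and Sox2 did not. The summed signal of these markers was 3303 to 3848 in untreated cells, 3055 to 3809 at 30 min and 3779 to 4181 at 120 min. Of 5 endothelial marker genes 1 passed the filter (summed signal 28.8 to 54.3 over the 9 arrays), as did 5 of the 7 pituitary hormone cell genes on the array (190 to 325) and 3 of 5 of leukocytes and macrophages (828 to 1146). Among the tested marker probe sets, the arrays of 120 min lay above the untreated ones for Gja1 (log2 change 0.61, adjusted p = 0.0527 by limma). They also did so for Cd14, a monocyte and macrophage gene (0.53, adjusted p = 0.0658), whose arrays of 30 min did so too. They lay below for the folliculostellate markers S100b (-0.40, adjusted p = 0.506), Cryab (-0.31, adjusted p = 0.336) and Aldh1a1 (-0.28, adjusted p = 0.581), for the Anxa1 probe set 161703_f_at (-0.30, adjusted p = 0.382) and for the hormone gene Lhb (-0.65, adjusted p = 0.269). The arrays of 30 min lay below the untreated ones for Gfap and Prl. Over all tested probe sets the groups did not overlap upward in 12.3% and downward in 13.0% at 120 min. The shares at 30 min were 6.11% and 8.65%. No marker was called in any comparison, and the part of marker levels in the results was not tested.

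**Figure D1:**
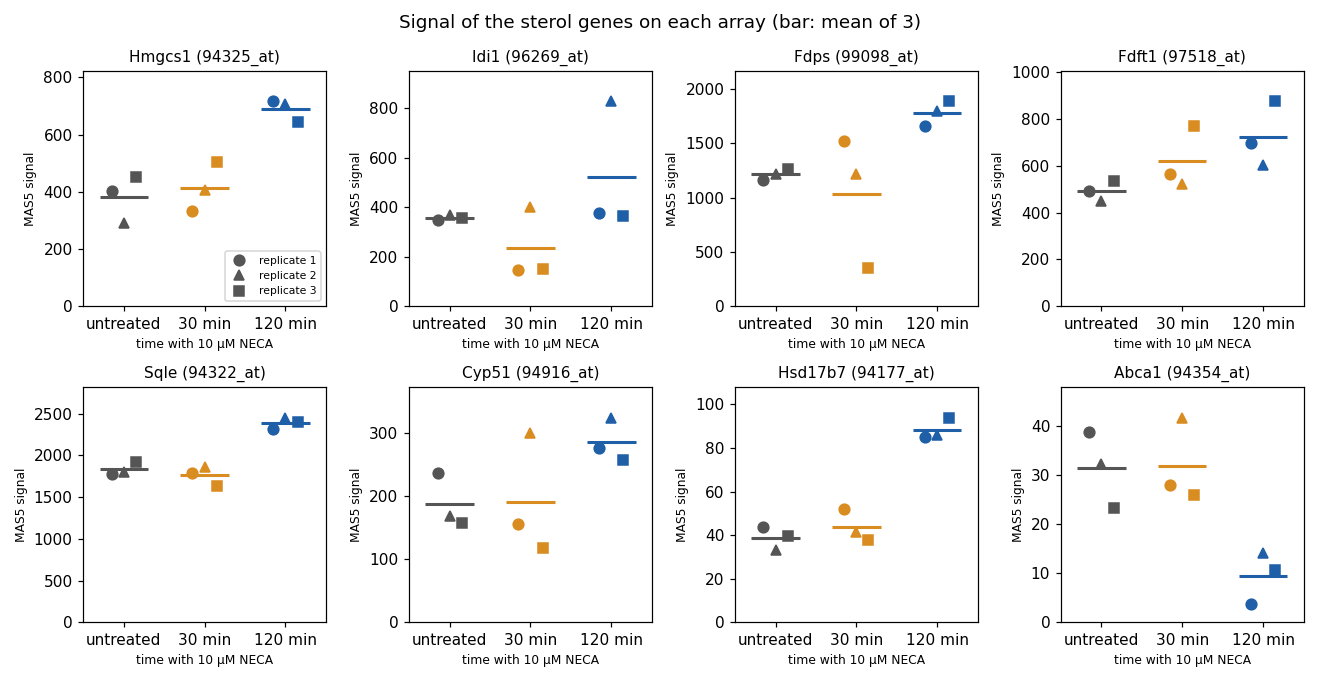
MAS5 signal (linear axis from 0) of each of the 8 genes on each array, by time with 10 µM NECA, with marker shape giving the replicate number and a bar the mean of 3. At 120 min Hsd17b7 sits between 85.2 and 93.9 against 33 to 43.8 in untreated cells, and Abca1 between 3.75 and 14.1 against 23.3 to 38.7.

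After 120 min of NECA, 2 of the 7 synthesis genes were higher than in untreated cells by the test, Hmgcs1 and Hsd17b7. Abca1 was called lower, but its probe set passed the filter only through the untreated and 30 min arrays, where it was high, so this call has less weight. The 7 synthesis genes all had positive log2 changes, from 0.38 to 1.05 with a median of 0.54, where the median over all tested probe sets was -0.043. These genes were chosen with earlier results of these data known, so this contrast is a description and no independent support. For 6 of the 7 the 3 arrays of 120 min all lay above the 3 untreated arrays. Among all tested probe sets, 1.83% were called higher and 1.54% lower at 120 min, together 3.38%, and the groups did not overlap upward in 12.3% and downward in 13.0%. Counted by probe set, 2 of the 10 tested were called higher and 1 lower, and 5 had an unadjusted p under 0.05, as had 1205 of all 7851 tested.

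Hmgcs1 (probe set 94325_at) encodes the cytosolic HMG-CoA synthase, an early enzyme of the mevalonate pathway. Its signal was 402, 289 and 452 in the untreated cultures, 334, 407 and 503 at 30 min, and 716, 708 and 643 at 120 min. The 3 values at 120 min lay above the other 6, while those at 30 min overlapped the untreated ones. The means were 381 ± 83.4, 415 ± 85.1 and 689 ± 39.9 (SD, n = 3 each), so that the signal at 120 min was 1.81 times that of untreated cells. The log2 change at 120 min was 0.86 ± 0.18 (SE) with an adjusted p of 0.0227 by limma. The call was lost when any of 5 arrays was left out, namely untreated replicate 1 or 2 or any array of 120 min, where the change was between 0.68 and 0.91 with adjusted p-values up to 0.107. It was also lost when the ratio of Gapdh signals at the 3' and 5' ends, a measure of RNA integrity, was a covariate (log2 change 0.64, adjusted p = 0.177). That ratio went in part with the groups, at 0.964 to 1.016 in untreated cells, 0.879 to 0.955 at 30 min and 0.925 to 0.98 at 120 min. A fit with this covariate can therefore not fully tell the ratio and the treatment apart.

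Hsd17b7 (94177_at) encodes a sterol ketoreductase that acts in the removal of the methyl groups of lanosterol. Its signal was 43.8, 33 and 39.5 in untreated cells, 52.1, 41.4 and 37.7 at 30 min, and 85.2, 85.8 and 93.9 at 120 min. The 3 values at 120 min again lay above the other 6, with a wide gap. The means were 38.8 ± 5.4, 43.7 ± 7.5 and 88.3 ± 4.86 (SD, n = 3 each), a ratio of 2.28 between 120 min and untreated cells. The log2 change was 1.05 ± 0.15 (SE), with an adjusted p of 0.00196 by limma. Among the 8 genes this was the call that held under each of the 19 alternative settings, with log2 changes between 0.77 and 1.17 and adjusted p-values up to 0.0151. These settings include the filter at the 60th percentile, a signal of 58.7. Hsd17b7 passed that filter only through its arrays of 120 min, where it was high, so that setting has less weight.

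Idi1 (96269_at) encodes the isomerase that interconverts the isoprenoid building blocks. Its signal was 346, 370 and 354 in untreated cells, 147, 402 and 149 at 30 min, and 376, 827 and 366 at 120 min. At both NECA times replicate 2 was higher than the other 2 cultures, and at 120 min those 2 were level with the untreated cells. The log2 change at 120 min was 0.44 ± 0.37 (SE, adjusted p = 0.589 by limma) and was 0.06 without NECA 120 min replicate 2.

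Fdps (99098_at) encodes farnesyl diphosphate synthase, the branch point enzyme for sterols and protein prenylation. Its signal was 1166, 1220 and 1268 in untreated cells and 1658, 1797 and 1888 at 120 min, so these groups did not overlap and their means had a ratio of 1.46. At 30 min it was 1525, 1217 and 349, with replicate 3 far below every other array. The log2 change at 120 min was 0.54 ± 0.40 (SE, adjusted p = 0.529 by limma), where the SE includes the spread at 30 min. Without NECA 30 min replicate 3 the change was again 0.54, with an adjusted p of 0.0164. With only the groups compared in the fit both 99098_at and 160424_f_at were called (adjusted p = 0.00774 and 0.0269).
The probe set 160424_f_at followed the same course, with 781, 690 and 828 in untreated cells, 964, 739 and 257 at 30 min and 1033, 1082 and 1073 at 120 min. The suffix _f marks probe sets that may also bind related sequences. The other 2 probe sets of Fdps were dim. That named 162281_at had signals of 19.7 to 41.7 over the 9 arrays and a log2 change of -0.05 ± 0.21 (SE) at 120 min, and 162217_r_at, at 1.85 to 14.3, did not pass the filter. The probe sets of Fdps thus disagreed, with the bright pair higher at 120 min on each array than on any untreated array and the dim pair overlapping.

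Fdft1 (97518_at) encodes squalene synthase, the first enzyme committed to sterols. Its signal was 491, 448 and 533 in untreated cells, 566, 522 and 769 at 30 min, and 697, 603 and 875 at 120 min. The arrays of 120 min all lay above the untreated ones, while those of 30 min overlapped both other groups. The log2 change was 0.31 ± 0.17 (SE) at 30 min and 0.54 ± 0.17 at 120 min, and neither was called (adjusted p = 0.611 and 0.146 by limma). With the Gapdh ratio as a covariate the change at 120 min was 0.31 for Fdft1, 0.81 for Idi1 and 1.24 for Fdps 99098_at, and none of these was called.

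Sqle (94322_at) encodes squalene epoxidase, a second control point of the pathway. Its signal was 1778, 1800 and 1926 in untreated cells, 1791, 1863 and 1629 at 30 min, and 2320, 2451 and 2397 at 120 min. The 3 arrays of 120 min lay above the other 6, and the replicates were close together. The means of untreated cells and of 120 min were 1835 ± 79.8 and 2390 ± 65.8 (SD, n = 3 each), a ratio of 1.30. The log2 change against untreated cells was 0.38 ± 0.10 (SE) and narrowly missed the threshold (adjusted p = 0.0692 by limma), which it passed without NECA 30 min replicate 2 or 3 or with only the groups compared in the fit (lowest adjusted p = 0.0289).

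Cyp51 (94916_at) encodes lanosterol demethylase. Its signal was 237, 168 and 157 in untreated cells, 155, 299 and 117 at 30 min, and 276, 324 and 257 at 120 min. The arrays of 120 min lay above the untreated ones, and NECA 30 min replicate 2 lay among them. The log2 change at 120 min was 0.61 ± 0.28 (SE) and was not called (adjusted p = 0.326 by limma).

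**Figure D2:**
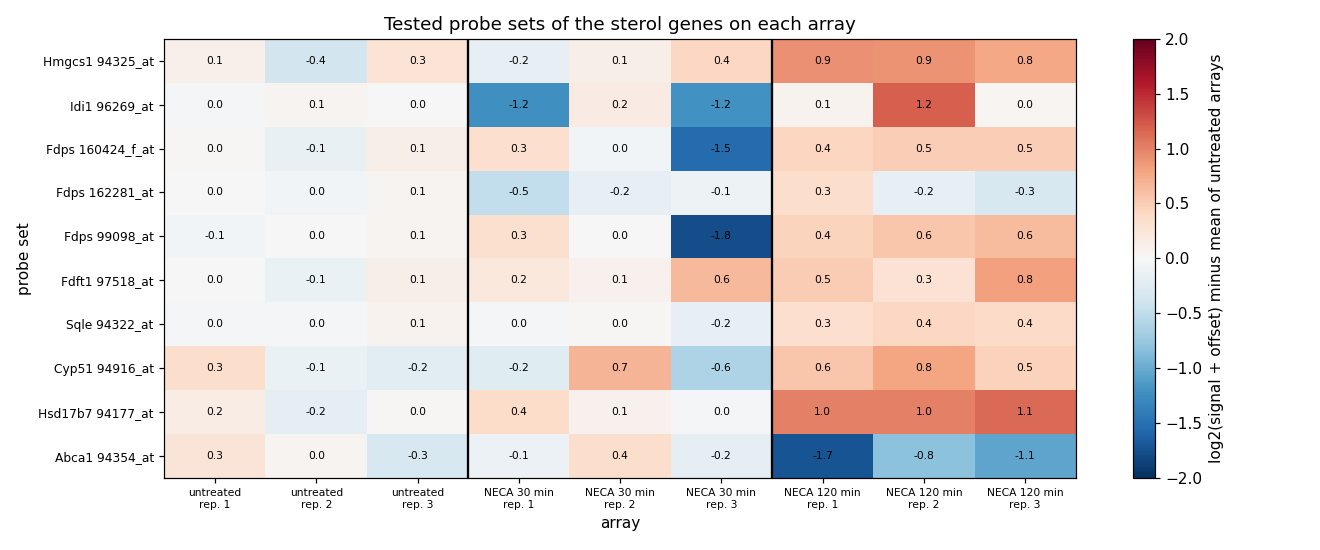
Log2(signal + offset) of the 10 tested probe sets on each of the 9 arrays, as the difference from the mean of the 3 untreated arrays (colour, with the value printed in each cell). The columns of 120 min are above 0 for the synthesis genes apart from 2 arrays of Fdps 162281_at, Abca1 is below 0 there, and NECA 30 min replicate 3 is low for both bright probe sets of Fdps.

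Abca1 encodes the ABC transporter that passes cellular cholesterol to apolipoprotein A-I. Its probe set 94354_at had signals of 38.7, 32.2 and 23.3 in untreated cells, 28, 41.7 and 25.9 at 30 min, and 3.75, 14.1 and 10.7 at 120 min. All 3 values at 120 min lay below the other 6 and below the filter of 20.5, so the probe set was tested only through the 6 arrays of the other groups. The means were 31.4 ± 7.74, 31.9 ± 8.59 and 9.51 ± 5.27 (SD, n = 3 each), and no fold is given because the values at 120 min are near the offset. On the log2(signal + 7.93) scale Abca1 fell by 1.20 (SE 0.28, adjusted p = 0.0349 by limma). At such low signals the size depends on the offset: the change was -1.75 with an offset of 1 and -0.61 with an offset of 32, and both were called. Leaving out untreated replicate 1 or 2, NECA 30 min replicate 1, or NECA 120 min replicate 1 or 3 ended the call, as did a fit with no filter, with the Gapdh ratio as a covariate and with only the groups compared in the fit (adjusted p up to 0.184). The second probe set, 97198_at, did not pass the filter. Its signal was 21.6, 19.7 and 17 in untreated cells, 20.4, 23.2 and 13.1 at 30 min and 12.4, 13.8 and 13.9 at 120 min, so that here too the arrays of 120 min lay below the untreated ones.

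After 30 min none of the 8 genes differed from untreated cells by the test. With limma 0 of the 10 tested probe sets were called, and 0 had an unadjusted p under 0.05. Among all tested probe sets 0.357% were called higher and 0% lower at that time. The log2 changes of the 7 synthesis genes ran from -0.76 to 0.31 with a median of -0.06, beside -0.037 for all tested probe sets. Hsd17b7 stood at 0.14 ± 0.15, Hmgcs1 at 0.12 ± 0.18, Abca1 at 0.01 ± 0.28 and Sqle and Cyp51 at -0.06 (SE 0.10 and 0.28). The groups did not overlap for 1 of the 10 probe sets, the dim Fdps 162281_at, which was lower (8.65% of all tested probe sets did so, and 6.11% did so upward).

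Compared directly with 30 min, the cultures of 120 min had higher Hsd17b7 and Sqle. Abca1 was called lower, again with all its arrays of 120 min below the filter. Hsd17b7 differed by 0.91 ± 0.15 on the log2 scale (adjusted p = 0.00588 by limma), Sqle by 0.44 ± 0.10 (0.0364) and Abca1 by -1.22 ± 0.28 (0.0353). Hmgcs1 was at 0.74 ± 0.18 and missed the threshold (adjusted p = 0.0568), while Idi1 was at 1.20 ± 0.37 (adjusted p = 0.149) and Fdps at 1.03 ± 0.40 (adjusted p = 0.275). For 4 of the 7 synthesis genes, Hmgcs1, Fdps, Sqle and Hsd17b7, the arrays of 120 min all lay above those of 30 min. Over all tested probe sets 1.35% were called higher and 1.62% lower, together 2.97% in either direction. The groups did not overlap upward in 7.44% of them and downward in 9.07%. The call of Sqle was kept in 4 of the 19 alternative settings, and that of Abca1 in 9 of the 18 in which it was tested. Cyp51 was at 0.67 ± 0.28 (adjusted p = 0.316). Without NECA 30 min replicate 2, Idi1 (1.66, adjusted p = 0.0078) and Cyp51 (1.04, adjusted p = 0.0146) were called. Hmgcs1 was called with the Gapdh covariate (0.87, adjusted p = 0.0305), with a filter at the 60th percentile (0.74, adjusted p = 0.0493) and without untreated replicate 2 or NECA 30 min replicate 3 (0.74 and 0.89, adjusted p = 0.0363 and 0.025). Without NECA 30 min replicate 3 the difference was 0.38 for Fdps 99098_at and 0.39 for Cyp51. This comparison shares the cultures of 120 min with the one against untreated cells.

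NECA 30 min replicate 3 stood apart for part of the pathway. Relative to the mean of the other 2 arrays of its group, its log2 value was at -1.94 for Fdps 99098_at and -1.68 for 160424_f_at, and 0.0637% and 0.28% of all tested probe sets were lower still. Cyp51 was at -0.84 and Idi1 at -0.68, but for these genes NECA 30 min replicate 2 deviated more, at 1.11 and 1.39. Idi1 was just as low on NECA 30 min replicate 1 (-0.71). Hmgcs1 and Fdft1 were at 0.44 and 0.49 on NECA 30 min replicate 3. Of all tested probe sets 2.85% were more than 1 lower there on the log2 scale, against 0.42% to 1.07% on each of the other 8 arrays. The Gapdh 3' to 5' ratio of this array, 0.879, was the lowest of the 9 (0.925 to 1.016 on the others), and its part in these values was not tested. Without this array 5 member probe sets were called at 120 min against untreated cells, those of Hmgcs1, Hsd17b7, Sqle and Abca1 and the Fdps probe set 99098_at.

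**Figure D3:**
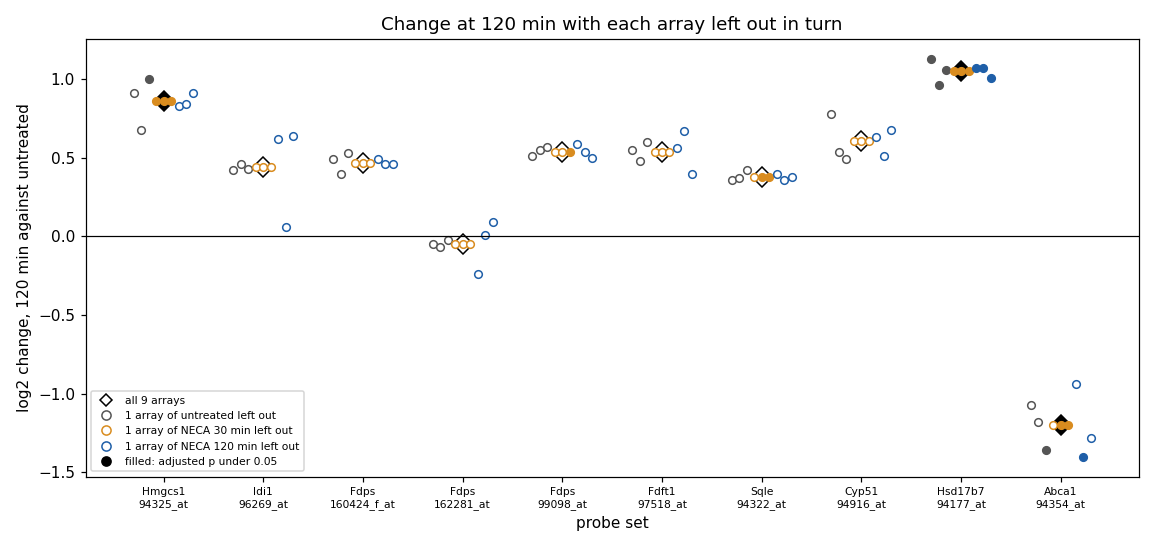
Log2 change at 120 min against untreated cells for the 10 tested probe sets, with all 9 arrays (diamonds) and with each array left out in turn (circles, coloured by the group of that array), filled where the adjusted p was under 0.05. Hsd17b7 stays filled throughout between 0.96 and 1.13, and leaving out an array of 30 min does not move a value but can fill or empty the marker.

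The other enzymes of the pathway were given by a wider list. Of 15 further synthesis genes 11 were on the array and tested, and 0 were called by limma at 120 min (2 had an unadjusted p under 0.05). That is close to the share over all tested probe sets, 1205 of 7851. Of the 11, 9 had a positive log2 change (3412 of the 7851), and the median was 0.21 beside -0.043 for all tested probe sets. Msmo1, a methyl sterol oxidase that works in the same demethylation as Hsd17b7, had signals of 233, 185 and 201 in untreated cells, 210, 246 and 106 at 30 min and 281, 351 and 290 at 120 min. Its log2 change at 120 min was 0.56 ± 0.25 (SE, adjusted p = 0.316), and the groups did not overlap. Nsdhl, a sterol dehydrogenase of that demethylation, was at 0.42 ± 0.32 and Mvd, mevalonate diphosphate decarboxylase, at 0.52 ± 0.19, neither called (adjusted p = 0.544 and 0.206 by limma). Lower on the list were Lss, lanosterol synthase, at 0.21 ± 0.15, Mvk, mevalonate kinase, at 0.21 ± 0.17, and Ggps1, which makes geranylgeranyl diphosphate, at -0.03 ± 0.22. The second probe set of Mvk, 95632_f_at, was at 0.95 ± 0.28 (adjusted p = 0.111). The 3 probe sets of Nsdhl and that of Msmo1 were, like Fdps, at their lowest of the 9 arrays on NECA 30 min replicate 3.

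Genes of sterol sensing, uptake and export other than Abca1 had small changes. Of 3 genes of sterol sensing on the array 2 were tested, Srebf1, which encodes SREBP-1 (-0.24 ± 0.14 at 120 min), and Mbtps1, a protease that activates SREBPs (0.01 ± 0.14), and 0 were called. The probe set of Insig1, a sterol-regulated retention protein of SREBPs, had signals of 0.476 to 4.02 and did not pass the filter. Of 5 tested genes of uptake and lysosomal release 0 were called at 120 min (0 with an unadjusted p under 0.05), with Npc2, Npc1 and Lrp1 at 0.17 ± 0.12, 0.13 ± 0.14 and 0.12 ± 0.15 (SE). Of 6 tested genes of efflux, storage and LXR signalling other than Abca1, 0 were called (1 with an unadjusted p under 0.05), with a median of -0.13. The exporter gene Abcg1 was at -0.10 ± 0.14, Nr1h3, which encodes LXR alpha, at -0.17 ± 0.15, its partner Rxra at -0.16 ± 0.13, and Ch25h, a cholesterol hydroxylase, at 0.40 ± 0.18.

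Fatty acid synthesis, which SREBP-1 controls, was listed for comparison. Of 9 tested genes 0 were called by limma at 120 min against untreated cells (2 with an unadjusted p under 0.05), with a median of 0.02. Scd1, a fatty acid desaturase, had signals of 1320, 1152 and 1046 in untreated cells, 1056, 1309 and 816 at 30 min and 1561, 1818 and 1985 at 120 min. It was called against 30 min (0.77 ± 0.17, adjusted p = 0.0312) and not against untreated cells (0.60 ± 0.17, adjusted p = 0.0913). Another tested probe set of Scd1, 94057_g_at, was called in neither comparison by limma. It was at 1.27 ± 0.32 against 30 min (adjusted p = 0.0621) and 0.75 ± 0.32 against untreated cells (adjusted p = 0.292). Gpam, an acyltransferase of glycerolipid synthesis, was at -0.53 ± 0.13 (adjusted p = 0.054) with its 3 arrays of 120 min below the untreated ones. The elongase genes Elovl6 and Elovl5 were at 0.42 ± 0.33 and -0.28 ± 0.27, and Fasn, the fatty acid synthase gene, was at 0.02 ± 0.17 (SE).

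**Figure D4:**
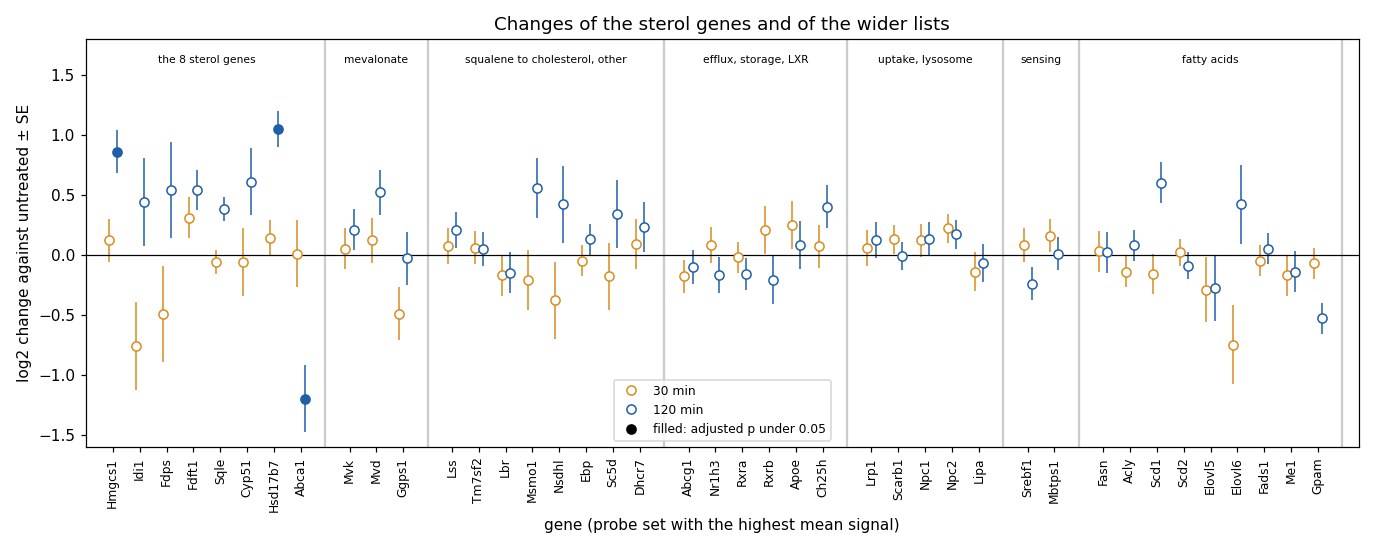
Log2 change against untreated cells (± SE) at 30 min and 120 min for the 8 sterol genes and for the tested genes of the wider lists, 1 probe set per gene, filled where the adjusted p was under 0.05. The filled points are Hmgcs1 at 0.86, Hsd17b7 at 1.05 and Abca1 at -1.20, all at 120 min.

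The genes whose course over the 9 arrays was most like that of Hmgcs1 and of Abca1 were found among 5884 tested named genes outside the 8. Likeness was the mean absolute difference of log2 values, each gene centred on its own untreated mean. For Hmgcs1 the nearest were Slc16a1, a monocarboxylate transporter gene, with a difference of 0.14, then Trim25, Apbb2 and Tsc22d1 (0.15 each) and Ninj1 (0.16). The signal of Slc16a1 averaged 39.2 in untreated cells, 39.7 at 30 min and 77.3 at 120 min. The nearest of the other sterol genes was Hsd17b7 (0.23). For Abca1 the nearest were Cited2, a transcriptional coregulator gene, at 0.15, Pnrc2 at 0.17, the kinase gene Map3k8 at 0.19, and Klf7 and Snai2, both transcription factor genes, at 0.22. Cited2 averaged 704, 721 and 337 in the 3 groups. The nearest synthesis gene to Abca1 was Sqle, at 0.66, although their log2 changes at 120 min had opposite signs (0.38 for Sqle and -1.20 for Abca1).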

How the data were processed

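The deposited values are linear intensities, MAS5 signals per the submitters' processing notes. The MAS5 version is not given in the sources used here, and detection calls were not used. Values were kept as the authors scaled them. Probe sets were named from GEO's platform annotation. All probe sets of the table except 66 controls were filtered and tested, and lmFit and eBayes with an intensity trend were run on all 9 arrays with limma 3.58.1 in R 4.3.3, two-sided. The offset of 7.93 and the filter of 20.5 are the 25th and 40th percentiles of all values. Folds on the log2 scale understate changes of dim probe sets. The fit was checked on simulated data. The members, lists, motifs and tests were chosen with earlier results of these data known. Named were the 8 genes, called genes of the wider lists and the 3 further genes per list with the smallest p at 120 min, and the 5 genes most like Hmgcs1 and Abca1, with Abcg1, Fasn and Insig1 added after their values were seen. Same-numbered cultures did not in general deviate together (correlations of deviations from -0.17 to 0.23), so numbers were not used as pairs. The highest of these was for replicate 2 of both NECA times, and cultures of unlike number ran from -0.21 to 0.23. Labels name replicate cultures, so p-values measure the spread between these cultures, whose number limits precision. The alternatives tried were other offsets, filters, scalings, samples in the fit and priors, a replicate block, a Gapdh covariate and each array left out.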

Additional observations from a re-analysis of the deposited data

Results flagged for a closer look

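The change at 120 min differed from the change at 30 min, by the direct test between these times, for 3 of the 8 sterol genes and 3 other named genes. The log2 differences were 0.91 for Hsd17b7, 0.44 for Sqle and -1.22 for Abca1. The call of Hsd17b7 held in 19 of 19 alternative settings, that of Sqle in 4 of 19 and that of Abca1 in 9 of 18. For Hsd17b7 these include the filter at the 60th percentile, which it passed only through its arrays of 120 min, where it was high. Abca1 has less weight here, because it passed the filter only through the untreated and 30 min arrays, where it was high. Outside the 8 the log2 differences were 0.77 for Scd1, 2.19 for Il6 and -3.18 for Nr4a1. Another tested probe set of Scd1, 94057_g_at, was not called. Groups of 3 arrays are too small for a test of single outlying arrays.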

How the results depend on the processing

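Of the 10 alternative choices and 9 omissions of an array, the number of member probe sets called at 120 min against untreated cells moved from 3 to 5 with only the groups compared and to 1 with the Gapdh covariate, and ran from 1 to 5 with an array left out. Against 30 min it moved from 3 to 1 with no filter and with only the groups compared, and ran from 1 to 4 with an array left out. At 30 min it was 0 throughout. With the replicate block it was 4 and 3, gaining Fdft1 at 120 min against untreated cells and Idi1 in place of Sqle against 30 min. Changes at 30 min that turned sign, none called, were with the Gapdh covariate Hmgcs1 (-0.23), Fdps (0.49 and 0.61), Fdft1 (-0.06), Sqle (0.06) and Cyp51 (0.13). With an array left out these were Hmgcs1 (-0.06 to 0.27), Fdps (-0.80 to 0.14 and -0.89 to 0.16), Cyp51 (-0.43 to 0.22) and Abca1 (-0.16 to 0.15). Fdps 162281_at at 120 min turned to 0.05 with quantile normalization and 0.00 with median centring, and ran from -0.24 to 0.09 with an array left out. The cause was not tested. Every array of 30 min had a lower Gapdh ratio than every untreated array, so at that time the covariate and the treatment cannot be told apart. Over all tested probe sets, calls at 30 min were 28 higher and 0 lower (15 to 39 and 0 to 46 with an array left out, 5 higher with the covariate), at 120 min 144 and 121 (88 to 182 and 60 to 135, 94 and 70 with the covariate), and between the times 106 and 127 (64 to 177 and 87 to 129). Dim signals limit Abca1 and 2 probe sets of Fdps.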
